A study of Mus musculus with 6 samples.

Results

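Matrix metalloproteinases (MMPs) and the tissue inhibitors of metalloproteinases (TIMPs) were examined in microglia from mice with acute ischemic stroke (AIS). The 10 genes were the proteases Mmp2, Mmp3, Mmp8, Mmp9, Mmp12, Mmp13 and Mmp14 and the inhibitors Timp1, Timp2 and Timp3. Every probe on the array that matched one of them by its transcript accession was taken, which gave 15 of the 56605 probes that are not controls. Mmp12 was chosen by its measured difference in these arrays, being low in the mPGC-1α-labelled group, so its values are given as a description with no test. The other 9 genes were added as members of the same protease and inhibitor families.

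The series held 6 arrays, each from 1 sample of microglia isolated with beads against the microglial surface receptor P2RY12. The 3 control samples came from PGC-1αf/f mice, which carry a loxP-controlled Pgc-1α allele joined to eGFP, and had no Cre. The 3 mPGC-1α samples came from littermates that carried the same allele together with Cx3cr1-Cre/ER, a tamoxifen-inducible Cre driven from the gene of the fractalkine receptor, which is active in microglia and in other cells of the mononuclear phagocyte lineage. Tamoxifen was given to both groups. The labels call the groups without and with PGC-1α overexpression and give male sex and an age of 10 weeks for all 6 samples. The mice were on a C57BL/6 background, and the time between stroke and isolation was not given in the sources used here. Nothing in the labels says whether a sample was 1 animal or a pool, so p-values measure only the spread between these samples.

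MMPs are zinc-dependent endopeptidases that are secreted or held at the membrane as inactive proenzymes and that cut collagens, laminins, elastin and other components of the extracellular matrix once the propeptide is removed. TIMPs bind the active site and block it. After stroke, MMPs from leukocytes, glia and vessel cells are known for breaking down the basement membrane and tight junctions of the blood-brain barrier. Mmp12 encodes macrophage elastase, Mmp13 and Mmp8 encode collagenases, Mmp3 encodes stromelysin, Mmp2 and Mmp9 encode gelatinases, and Mmp14 encodes a membrane-type MMP that activates pro-MMP2.

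Mmp12, Mmp13, Mmp3 and Mmp8 lie in a cluster of MMP genes on chromosome 9, and of these 4 only Mmp13 and Mmp12 are direct neighbours within it. RefSeq start site windows of 300 bases, from 250 before to 50 after the annotated start (build GRCm38.p6), were found for 8 of the 10 genes, and Mmp12 had a pair of annotated starts. Mmp2 and Mmp9 were not in the table. The windows of Mmp12 and Mmp13 are shown because these were the members that were lower without overlap below. That of Mmp3 is shown because it held the same motif. Capitals mark matches to the AP-1 motif TGAGTCA on either strand and to the TATA box TATAAA on the strand shown.
Mmp13, chr9:7272264-7272563, plus strand: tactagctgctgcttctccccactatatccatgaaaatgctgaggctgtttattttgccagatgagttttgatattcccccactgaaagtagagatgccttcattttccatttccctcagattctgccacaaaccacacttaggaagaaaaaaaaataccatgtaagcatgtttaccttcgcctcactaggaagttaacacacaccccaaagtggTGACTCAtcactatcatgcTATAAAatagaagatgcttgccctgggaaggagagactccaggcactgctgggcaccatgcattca
Mmp12, upstream start, chr9:7344147-7344446, plus strand: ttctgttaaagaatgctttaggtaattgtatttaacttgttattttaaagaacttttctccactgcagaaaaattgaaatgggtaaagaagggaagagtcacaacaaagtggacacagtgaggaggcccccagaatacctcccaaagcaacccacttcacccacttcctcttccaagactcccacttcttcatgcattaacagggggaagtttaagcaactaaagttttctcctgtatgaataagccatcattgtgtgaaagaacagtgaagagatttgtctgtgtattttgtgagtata
Mmp12, downstream start, chr9:7347124-7347423, plus strand: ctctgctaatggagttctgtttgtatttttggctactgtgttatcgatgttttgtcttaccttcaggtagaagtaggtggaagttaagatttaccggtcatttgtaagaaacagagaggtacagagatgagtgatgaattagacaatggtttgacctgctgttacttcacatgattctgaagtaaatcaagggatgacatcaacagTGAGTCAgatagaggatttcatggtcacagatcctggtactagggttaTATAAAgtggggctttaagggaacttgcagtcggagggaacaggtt
Mmp3, chr9:7445572-7445871, plus strand: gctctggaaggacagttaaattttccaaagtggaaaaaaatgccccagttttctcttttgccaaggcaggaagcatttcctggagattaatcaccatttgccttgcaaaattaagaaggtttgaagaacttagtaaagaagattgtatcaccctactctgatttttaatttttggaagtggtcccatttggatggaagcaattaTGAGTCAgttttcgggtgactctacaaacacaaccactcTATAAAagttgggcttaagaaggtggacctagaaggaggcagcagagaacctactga
The AP-1 motif was in 3 of the 9 windows, those of Mmp13, Mmp3 and the downstream Mmp12 start, and in 5.20% of all 32851 start site windows. The TATA box was in the same 3 windows and in 8.32% of all windows. The ETS-type motif AGGAAG, searched on both strands, was in 7 of the 9 windows and in 35.4% of all windows. The motif AAGGTCA, bound by the estrogen-related receptors, nuclear receptors that PGC-1α coactivates, was in none of the 9 windows on either strand and in 4.72% of all windows. These matches describe the letters of the windows only.

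Levels are log2 of the processed signal of a probe minus the 75th percentile of its array, so a level of 0 is a signal at that percentile. A level of 1 probe is not comparable with that of another. Between 71.0% and 86.5% of probes were well above background on an array, none was saturated, and the number of arrays limits the precision. Arrays 1 and 2 of each group shared 1 slide and array 3 of each group lay on another. The labels were checked first. On the array labelled control 2, the level of Xist, the RNA that coats the inactive X chromosome, was -4.83, against -0.57 to -0.11 on the other 5 arrays, and 4 of the 7 probes of Y-linked genes were above background on control 2 alone (Ddx3y at -2.69 there). Low Xist with Y-linked signal, as on control 2, fits the male label that all 6 samples share. The levels on the other 5 arrays, controls 1 and 3 and all 3 mPGC-1α-labelled arrays, go against it. Control 2 stood apart from the other arrays in this way, so results are given with and without it. Ppargc1a, which encodes PGC-1α, was not higher in the mPGC-1α-labelled arrays: its probes differed by -0.31 and -0.41 (limma, adjusted p = 0.798 and 0.769), and whether they detect the transgene's RNA was not given in the sources used here. The microglial genes P2ry12 and Tmem119 were well above background on all 6 arrays, at 3.94 to 4.40 and 5.15 to 5.52, on spots partly marked as outliers by the scanner software. The brightest probe of Cx3cr1, whose promoter drives the Cre, read 3.96, 4.41 and 3.75 in the controls. It read 3.57, 3.67 and 3.90 in the mPGC-1α-labelled arrays, so the groups overlapped, and 3 of its 6 spots were marked as outliers. The other Cx3cr1 probe, A_52_P99810, differed by -1.23 without overlap (limma, adjusted p = 0.684). Lower values without overlap were seen on 4.66% of all probes with 6 values. Among the 12 microglial markers tested, 6 were lower and the other 6 higher, and the median was 0.05. Genes of other cell types were detected on all 6 arrays too: S100a9 of neutrophils (5.19 to 5.84), Chil3 of monocytes and macrophages (4.38 to 5.43), Ttr of choroid plexus (5.72 to 6.21), Snap25 of neurons (5.22 to 6.10), Aldoc of astrocytes (2.27 to 4.74), Col1a1 of fibroblasts (4.48 to 5.12) and Acta2 of mural cells (4.94 to 5.08). Of the marker lists, Rgs5 and Tmem212 were above background on no array.

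Mmp12 was lower on all 3 of its probes in the mPGC-1α-labelled arrays. Its brightest probe, A_55_P2024803, read 0.48, -1.04 and 0.53 in control arrays 1 to 3 and -3.18, -3.81 and -3.42 in mPGC-1α-labelled arrays 1 to 3. In linear signal before scaling these were 1644, 345 and 1408 units against 83.5, 49.99 and 83.6 units. The control values all lay above the mPGC-1α-labelled values, with control 2 the lowest of the controls. The means were -0.01 ± 0.89 and -3.47 ± 0.32 (SD, n = 3 each), a difference of -3.46, or 11.01-fold lower. That was the 13th lowest difference of the 40745 probes tested.

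The probe A_51_P313674, matched to another Mmp12 transcript, read -2.30, -3.06 and -2.52 in the controls and -5.08, -4.79 and -4.94 in the mPGC-1α-labelled arrays, the last of which was not well above background. Its difference was -2.31, or 4.96-fold lower, and -0.99 with normexp correction and quantile normalization, and control 2 was again the lowest control. The probe A_55_P2788594, matched to the same transcript as the brightest one, read -3.04, -1.43 and -3.02 against -3.72, -4.12 and -4.06. Its difference was -1.47, or 2.76-fold lower. Here control 2 was the highest control, so the probes placed control 2 in opposite order while all 3 kept every control above every mPGC-1α-labelled array.

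All 3 probes were lower on each slide and stayed lower without control 2. These are the same arrays on which Mmp12 was chosen, so this is a description and no support. The second slide held only array 3 of each group. For the brightest probe the difference was -3.22 on the slide with arrays 1 and 2 and -3.95 on the other slide, and it was -3.98 without control 2. Without control 2, A_51_P313674 differed by -2.53. A_55_P2788594, on which control 2 was the highest control, differed by -0.93 without it, against -1.47 with it. Of all probes tested, 4.34% were at least 2-fold lower, and of the 36995 probes with 6 values, 4.66% were lower without overlap. These shares are given as the setting for Mmp12, which was selected on this contrast.

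**Figure D1:**
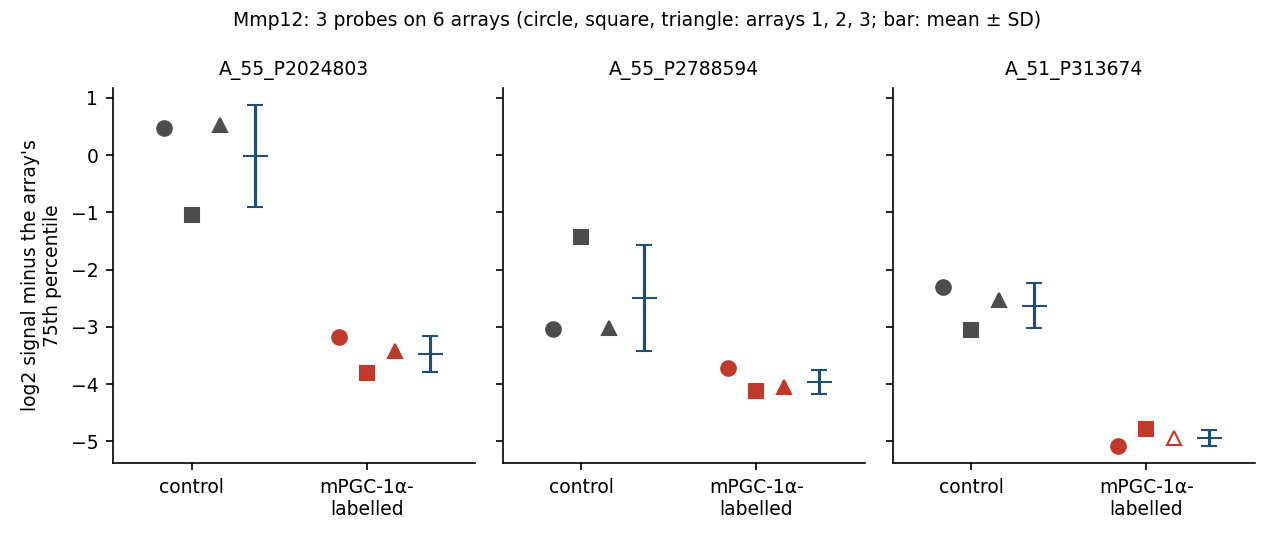
Level of the 3 Mmp12 probes (y axis, log2 signal minus the array's 75th percentile) in control (grey) and mPGC-1α-labelled (red) arrays, 1 symbol per array (circle, square and triangle for arrays 1, 2 and 3; open where not well above background), with mean ± SD of 3 arrays in blue. Every control array lies above every mPGC-1α-labelled array on each probe, and the square, control 2, is the lowest control on A_55_P2024803 and A_51_P313674 and the highest on A_55_P2788594.

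Because the samples are RNA of many cells, fewer cells that express Mmp12 and less Mmp12 RNA per cell cannot be told apart. Macrophages are a known source of this elastase. Of 15 monocyte and macrophage markers, 13 were lower in the mPGC-1α-labelled arrays and 2 higher. Their median difference was -0.20, against 0.11 over all 18222 genes tested, of which 36.0% were lower. None of the 15 markers passed an adjusted p of 0.05. The mean level of the 10 markers of this list with 6 values was 0.33, 0.58 and 0.81 in the controls and -0.54, 0.29 and 0.38 in the mPGC-1α-labelled arrays, and their summed linear level ranged from 36.6 to 48.0 in the controls and from 26.7 to 54.3 in the mPGC-1α-labelled arrays, in units of each array's 75th percentile. Within the list, picked after its values were seen, the arginase gene Arg1 had the largest difference (-2.20). Neutrophil markers had a median difference of -0.16, with 4 of 9 higher and 5 lower. Markers of neurons (11 of 12), astrocytes (9 of 9) and oligodendrocytes (10 of 10) were higher, with medians of 0.86, 0.67 and 0.87. Their part in the level of Mmp12 was not tested.

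The genes whose levels followed the brightest Mmp12 probe most closely over the 6 arrays, of 6189 genes with a span of at least 1 log2 unit, were Olfr8 (Pearson r = 0.996), Baiap2l1 (0.983), Fam185a (0.981), Otx1 (0.976) and Myef2 (0.971). They shared its low value on control 2 among the controls. For Olfr8, an olfactory receptor gene, the levels were -5.07, -6.06 and -4.91 against -7.10, -7.45 and -7.11. These are low signals, and the arrays on which this Olfr8 probe was well above background are not given here. For Baiap2l1 they were -0.32, -1.31 and -0.69 against -2.15, -2.58 and -2.67. With 6 arrays in 2 separate groups, these correlations describe the arrays and carry no p.

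Mmp13, the collagenase gene next to Mmp12, was the only other member whose groups did not overlap among the 8 probes outside Mmp12 with 6 values. It read -4.81, -5.26 and -3.12 in the controls and -6.28, -6.14 and -7.15 in the mPGC-1α-labelled arrays, and the last of these was not well above background. In linear signal it was 42.0, 18.6 and 112 units against 9.78, 9.96 and 6.28 units, and the probe passed the filter on dim probes only through its control arrays, the group in which it was high. The difference was -2.13 with a standard error of 0.57 and a 95% interval of -3.42 to -0.84 (limma, unadjusted p = 0.00457, adjusted p = 0.684). Since that filter favours a difference in this direction, the p-values of Mmp13 support nothing by themselves; with no filter on dim probes the adjusted p was 0.689. An exact permutation test gave p = 0.1, the smallest that 3 arrays against 3 allow. The difference did not pass the adjusted threshold, and neither did any of the 40745 probes (0%), while 7.17% of probes passed an unadjusted p of 0.05.

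Whether Mmp13 passed the adjusted threshold depended on control 2, on the pairing of replicate numbers and on the scaling. Without control 2 the difference was -2.56 with an adjusted p of 0.0485 in limma, where 2102 of all probes passed, 140 higher and 1962 lower. With the replicate numbers as a block the adjusted p was 0.148, and the differences of pairs 1, 2 and 3 were -1.47, -0.88 and -4.03. With the block and the 75th percentile taken over spots that were not marked as outliers, the adjusted p was 0.00219, and 1715 of all probes passed. The difference was -1.17 on the slide of arrays 1 and 2 and -4.03 on the other slide. It was -0.55 with normexp correction and quantile normalization (limma, adjusted p = 0.753).

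Mmp3 and the other genes of the chromosome 9 cluster were mostly at or near background. Mmp3, a stromelysin that activates other pro-MMPs, read -8.62, -5.92 and -6.31 in the controls and -6.32, -6.86 and -7.19 in the mPGC-1α-labelled arrays, and only control 2 and mPGC-1α-labelled array 1 were well above background. It was not tested. In cluster order, Mmp13, Mmp12, Mmp1b, Mmp3, Mmp1a, Mmp10, Mmp8, Mmp27, Mmp20 and Mmp7 were on the array, and the brightest probe of 5 of these 10 was tested. None of the 6 arrays detected Mmp1a, Mmp20 or Mmp7 well above background, and 1 control array detected Mmp10. Mmp1b differed by -0.38 (adjusted p = 0.828) and Mmp27 by -0.73 (adjusted p = 0.810) in limma, with overlapping groups. Among the tested genes of the cluster, Mmp13 and Mmp12 were lower in the mPGC-1α-labelled arrays without overlap. Of all probes with 6 values, 4.66% were. Mmp12 was selected on this contrast, and Mmp13, Mmp1b and Mmp27 passed the filter on dim probes only through their control arrays. The low values of Mmp13 and Mmp12 are therefore a description and not a result about neighbouring genes.

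Mmp8 and Mmp9, the collagenase and gelatinase stored in neutrophil granules, were well above background on all arrays. The Mmp8 probe read 2.37 and 2.92 in controls 1 and 2 and 1.35, 3.11 and 3.47 in the mPGC-1α-labelled arrays. The spot of control 3, at 2.39, was marked as an outlier and left out. The groups overlapped, with the lowest and the highest value both in the mPGC-1α-labelled group. The difference was -0.0003 with a standard error of 0.56 and a 95% interval of -1.28 to 1.28 (limma, adjusted p = 1.00), which spans more than a 2-fold change either way.

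Mmp9 had a pair of probes. A_66_P130121 read 2.73, 2.64 and 2.64 against 2.11, 2.79 and 2.50, a difference of -0.20 with a 95% interval of -0.68 to 0.28 (limma, adjusted p = 0.851). A_52_P507214 read 1.60, 0.95 and 1.52 against -0.79, 0.98 and 1.27, a difference of -0.87 with an interval of -1.95 to 0.21 (limma, adjusted p = 0.737). On both probes mPGC-1α-labelled array 1 was the lowest of the 6 arrays and the groups overlapped. Without that array the differences were -0.02 and -0.23 for Mmp9 and 0.65 for Mmp8.

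The mean level of the neutrophil marker list was also lowest on mPGC-1α-labelled array 1. The mean level of the 6 markers of this list with 6 values was 2.32, 2.88 and 3.18 in the controls and 1.03, 3.10 and 3.12 in the mPGC-1α-labelled arrays. Their summed linear level ranged from 65.5 to 106 in the controls and from 40.8 to 113 in the mPGC-1α-labelled arrays. All 13 neutrophil markers were detected on the arrays. Each of the 6 in the mean was lowest on mPGC-1α-labelled array 1. Csf3r and S100a9 were lowest on control 1, at 5.09 and 5.19, against 5.61 and 5.23 on mPGC-1α-labelled array 1. The S100a9 spots were partly marked as outliers, and Csf3r had no value on control 2. Elane, which encodes neutrophil elastase, read 0.41, 0.91 and 1.59 against -1.67, 1.02 and 1.20. Microglial markers did not share the low value, with means of 4.11, 3.90 and 4.23 against 3.87, 3.77 and 3.99. The low value was not particular to neutrophil markers. Also lowest on mPGC-1α-labelled array 1 were the means of monocyte and macrophage (-0.54), choroid plexus and ependymal (0.26), fibroblast (-1.52) and endothelial and mural markers (-1.25). Those of astrocyte, oligodendrocyte and neuron markers were not. The part of neutrophil RNA in Mmp8 and Mmp9 was not tested.

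**Figure D2:**
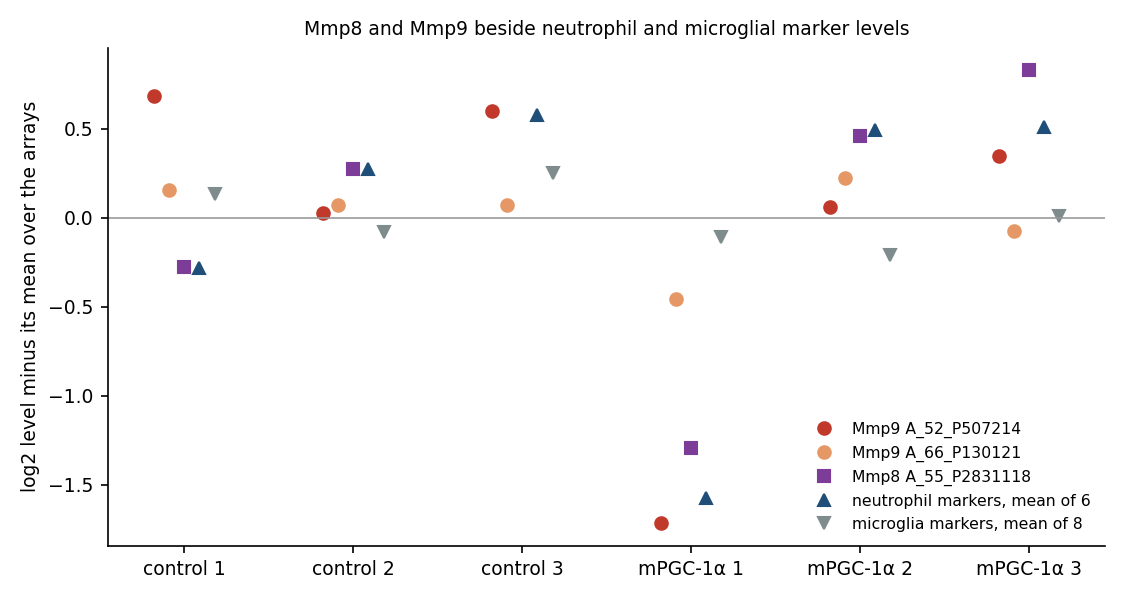
Levels of Mmp8 and both Mmp9 probes on each array beside the mean level of 6 neutrophil and 8 microglial markers (y axis, log2 level minus its own mean over the arrays; x axis, the 6 arrays; the marked Mmp8 spot of control 3 is not drawn). On mPGC-1α-labelled array 1 the 3 protease probes and the mean of the neutrophil markers are at their lowest, and the mean of the microglial markers is not.

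Mmp2 and Mmp14, which act together at the cell surface, did not pass the test. Mmp2 read -0.41 and -0.91 in controls 1 and 2 and -0.55, -1.28 and -0.88 in the mPGC-1α-labelled arrays, with the spot of control 3 (-0.34) marked and left out. The difference was -0.24 with a 95% interval of -0.97 to 0.49 (limma, adjusted p = 0.887). Mmp14 read 0.97, -1.30 and -0.07 against -0.19, -0.80 and -0.12, a difference of -0.23 with an interval of -1.35 to 0.88 (limma, adjusted p = 0.935). The controls held both the highest and the lowest Mmp14 value, and the difference was 0.32 without control 1 and -0.82 without control 2.

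The inhibitors did not pass the test either. Timp1, the inhibitor that is induced in injured tissue, read 0.14, 1.22 and 0.57 in the controls and 0.89, 0.96 and 0.52 in the mPGC-1α-labelled arrays, a difference of 0.15 with a 95% interval of -0.51 to 0.80 (limma, adjusted p = 0.929). It was -0.11 without control 1. The groups overlapped, with control 2 the highest and control 1 the lowest array.

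Timp2, which inhibits MMP2 and also takes part in its activation by MMP14, had probes that differed in direction. A_65_P12392 read 4.26 and 4.43 in controls 1 and 2 and 4.63 and 4.71 in mPGC-1α-labelled arrays 1 and 2, with array 3 of each group marked and left out. Its difference was 0.33 with an interval of -0.18 to 0.84 (limma, adjusted p = 0.772) on 2 arrays a group, which did not overlap. A_52_P540219 read 2.46, 2.14 and 2.28 against 2.42, 1.88 and 2.16, a difference of -0.14 with an interval of -0.61 to 0.32 (limma, adjusted p = 0.896), and here the groups overlapped.

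Timp3, the inhibitor that binds to the matrix, was lower on both probes without passing the test. A_51_P463765 read 0.65, 1.52 and 1.36 in the controls and 0.16, 0.80 and 0.80 in the mPGC-1α-labelled arrays, a difference of -0.59 with an interval of -1.25 to 0.06 (limma, adjusted p = 0.715). The mPGC-1α-labelled value was the lower one in each of the 3 same-numbered pairs, by -0.49, -0.72 and -0.57, and control 1 lay below 2 mPGC-1α-labelled arrays. A_55_P2865447 read 0.80, 2.13 and 1.82 against 0.90, 1.67 and 1.74, a difference of -0.15 with an interval of -0.97 to 0.67 (limma, adjusted p = 0.943). On that probe the difference was 0.12 without control 2 and 0.12 without mPGC-1α-labelled array 1.

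**Figure D3:**
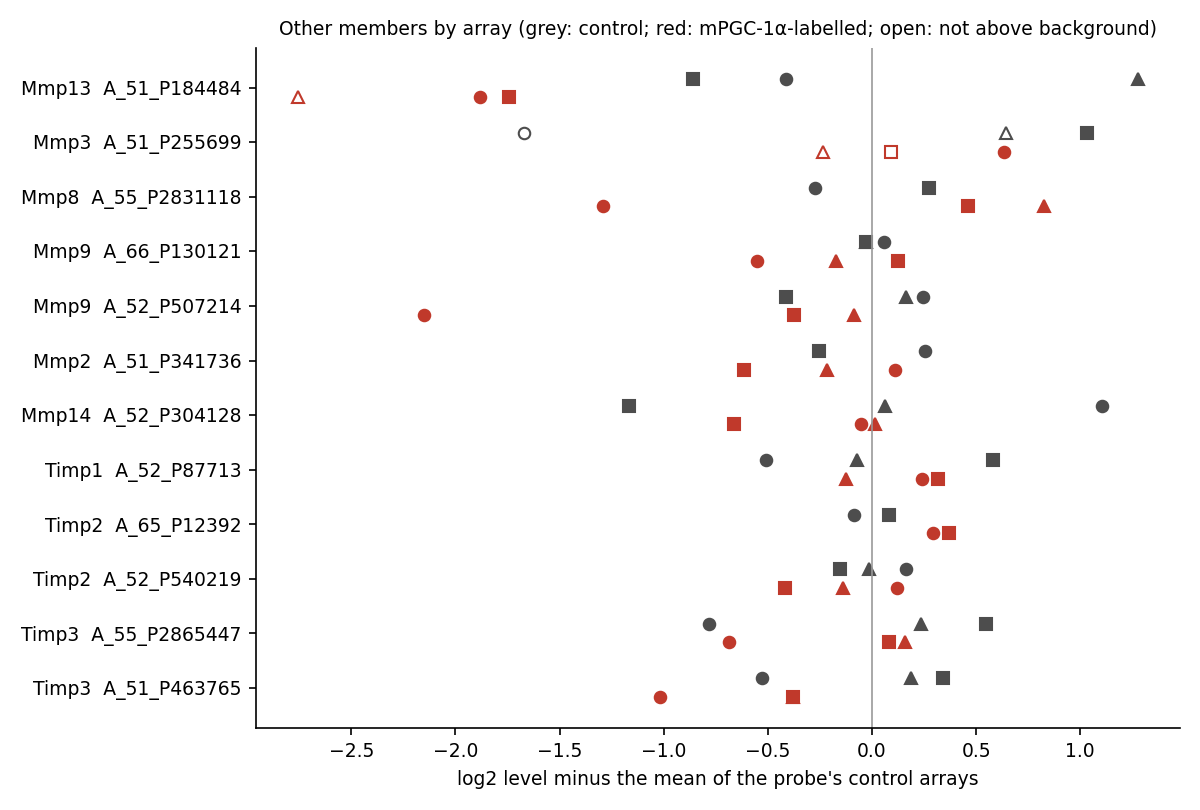
Values of the 12 member probes outside Mmp12 on each array (x axis, log2 level minus the mean of that probe's control arrays; grey, control; red, mPGC-1α-labelled; circle, square and triangle for arrays 1, 2 and 3; open where not well above background; spots marked as outliers not drawn). Mmp13 is the only probe with 6 values on which all red symbols lie left of all grey ones.

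Of the 12 probes outside Mmp12, 11 probes of 8 genes passed the filter on dim probes and that of Mmp3 did not. Of these 11 probes, 9 were lower and 2 higher in the mPGC-1α-labelled arrays, against 36.0% lower of all 18222 genes tested. The median difference of the 11 was -0.20. None passed an adjusted p of 0.05 in limma, with or without the replicate block, under which 1 of all 40564 probes (0.00247%) passed. An unadjusted p of 0.05 was passed by 1 of the 11, against 7.17% of all probes tested. Of the 8 with 6 values, 1 was lower without overlap, against 4.66% of all probes with 6 values, and 0 were higher without overlap, against 6.80%. With so few probes these counts are not a result about the members. The adjusted p-values ran from 0.684 to 1.00. A p that misses the threshold does not show that the groups were alike, and the intervals above give the size of change that these arrays leave possible.

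Genes around the proteases were counted in 5 lists of 89 genes in all, of which 81 were tested on their brightest probe. None passed an adjusted p of 0.05, and 11 (13.6%) passed an unadjusted p of 0.05, 6 higher and 5 lower, against 6.09% of all 18222 genes. The lists were chosen with earlier results of these data known, so this share is not a result about them. The counts by direction given below for these list genes stand beside 36.0% lower of all 18222 genes tested. Without control 2, 3 of the genes (Adam10, Adamts4 and Nfkb1) passed the adjusted threshold in limma. In that setting 2102 of all 39288 probes tested passed, so the 3 genes are not a result about the lists.

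Of the other MMPs with Timp4 and the membrane inhibitor Reck, 14 of 18 were tested, 7 higher and 7 lower, with a median of 0.01. Mmp25, a membrane-anchored MMP of leukocytes, read -2.0, -2.83 and -1.59 against -4.02, -2.82 and -2.79, a difference of -1.07 (limma, adjusted p = 0.686) with its lowest value on mPGC-1α-labelled array 1 as well. Mmp15, a membrane-type MMP, read -4.21, -4.33 and -4.24 against -5.51, -4.80 and -5.34, a difference of -0.95 (limma, adjusted p = 0.684) without overlap. On 1 mPGC-1α-labelled array Mmp15 was not well above background, so its probe passed the filter on dim probes only through its control arrays. Since that filter favours a difference in this direction, the p of Mmp15 supports nothing by itself. Its difference was -0.25 with normexp correction and quantile normalization. Of all probes with 6 values, 4.66% were lower without overlap.

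Of proteases that process pro-MMPs, their inhibitors and MMP partners, 18 of 20 were tested, 11 higher and 7 lower, with a median of 0.14. Pcsk6, a proprotein convertase, read -4.53, -4.61 and -4.55 in the controls and -2.71, -1.66 and -3.45 in the mPGC-1α-labelled arrays on its brightest probe. That was a difference of 1.96 (limma, adjusted p = 0.684) without overlap. It was 1.02 as the mean of all tested Pcsk6 probes, and 1.07 on the brightest probe with normexp correction and quantile normalization. Of all probes with 6 values, 6.80% were higher without overlap. Elane differed by -0.79 (limma, adjusted p = 0.812), and by 0.14 without mPGC-1α-labelled array 1.

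Of the ADAM and ADAMTS metalloproteinases, 10 of 11 were tested, 5 higher and 5 lower, with a median of 0.03. Adam10, a membrane sheddase, differed by -1.05, the aggrecanase gene Adamts4 by 0.92 and Adam19 by 0.47 (limma, adjusted p = 0.687, 0.685 and 0.769), each with overlapping groups. Of 24 substrates, all tested, 19 were higher and 5 lower, with a median of 0.25. The tight junction gene Ocln differed by -0.98, without overlap, and the elastin gene Eln by -0.64 (limma, adjusted p = 0.684 and 0.771). Bcan, the brain proteoglycan brevican, read -0.39, 0.11 and 0.49 against 0.96, 1.03 and 0.93, a difference of 0.90 (limma, adjusted p = 0.684) without overlap. Of all probes with 6 values, 4.66% were lower and 6.80% higher without overlap. Astrocyte markers were higher in 9 of 9, oligodendrocyte markers in 10 of 10 and neuron markers in 11 of 12. The part of these cell types in Bcan was not tested.

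Of genes for cytokines, receptors and transcription factors that are known to induce MMPs, 15 of 16 were tested, 10 higher and 5 lower, with a median of 0.10. Nfkb1, a subunit of NF-κB, read 1.59, -0.03 and 0.94 against 0.21, -0.28 and -0.42, a difference of -0.997 (limma, adjusted p = 0.685), and control 2 overlapped with the mPGC-1α-labelled arrays. Fosl1, a subunit of AP-1, differed by 0.73 and the IL-4 receptor gene Il4ra by 0.46 (limma, adjusted p = 0.826 and 0.690). Fosl1 overlapped between the groups and Il4ra did not, and 6.80% of all probes with 6 values were higher without overlap.

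**Figure D4:**
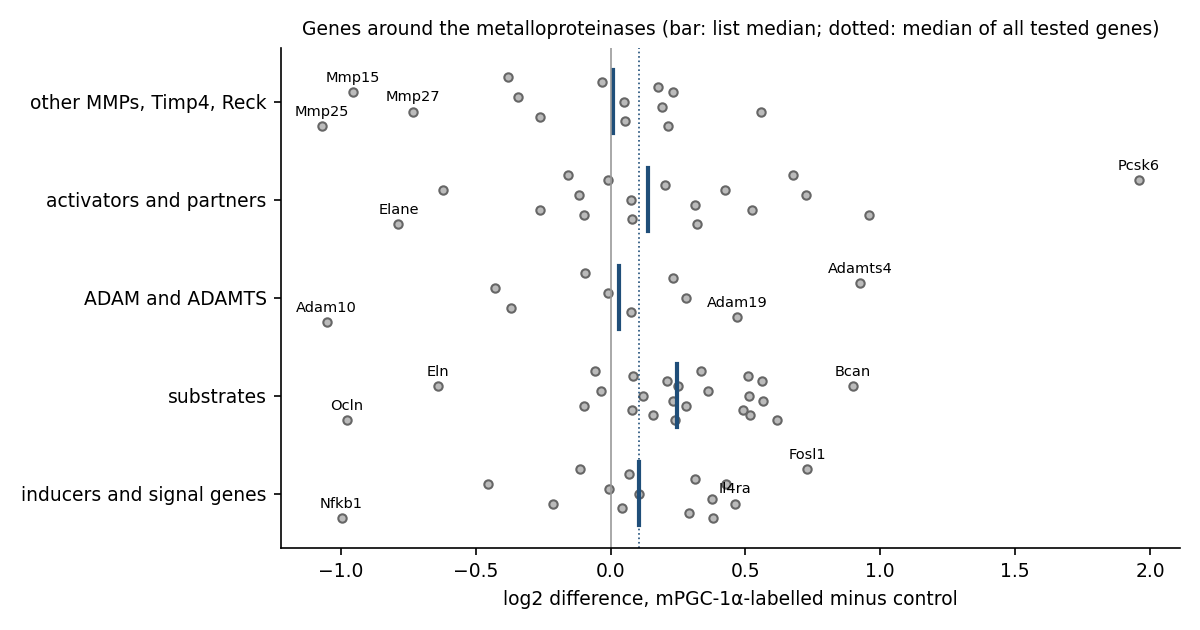
Differences between mPGC-1α-labelled and control arrays (x axis, log2) of the tested genes of 5 lists, 1 point per gene at its brightest probe, with the list median as a blue bar, the median of all tested genes (0.11) as a dotted line, and genes with the largest differences of each list named. The list medians lie between 0.01 and 0.25, and no gene passed an adjusted p of 0.05.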

How the data were processed

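Arrays were hybridised with RNA of P2RY12-isolated microglia, 1 per sample. Cy3 and Cy5 are both named as the dye in different label fields; 1 green channel was scanned. The deposited scanner files give an intensity per spot on a linear scale from Agilent Feature Extraction 11.5.1.1, background-subtracted and not normalized between arrays. The table of log2 values that the authors normalized in GeneSpring served as an alternative.

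Samples were grouped by the genotype in the labels. Each level was the log2 processed signal less the 75th percentile of its array, taken over all 56605 probes that are not controls. Outlier-marked spots, which are mostly bright, stayed in the percentile and were left out as values; leaving them out of the percentile lowers it by 0.50 on mPGC-1α-labelled array 3, by 0.25 on control 3 and by 0.03 to 0.08 elsewhere. Probes well above background on every unmarked array of at least 1 group, with at least 2 values in each group, were tested in R 4.3.3 with limma 3.58.1 (lmFit, eBayes with an intensity trend, two-sided, Benjamini-Hochberg over all 40745 tested probes), and the fit was tested on simulated data. Accessions of 33767 probes (59.7%) matched a RefSeq symbol, and a gene was represented by its brightest tested probe.

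Members and lists were chosen with earlier results of these data known. Named were all members, the 3 genes of each list with the largest absolute difference, any list gene that passed, the 5 genes most like Mmp12, and fixed marker and label checks; a list gene and a marker gene that this rule names are not reported here. Same-numbered samples of the groups deviated together (correlations of 0.17 to 0.25, against -0.34 to 0.03 for other pairs), so a replicate block was tried. Other alternatives were the scaling, the background correction, the filter on dim probes, slide, outlier marks and each array left out. Promoter windows came from RefSeq (GRCm38.p6).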

Additional observations from a re-analysis of the deposited data

How the results depend on the processing

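The number of arrays and, for Mmp13 and Mmp3, signals near background set the limits: without control 2, which stood apart from the other arrays in sex-linked genes, 2102 of all probes passed, and leaving out 1 array at a time gave 0 to 2102 over all probes, 0 to 1 over the member probes outside Mmp12 and 0 to 3 over the pathway lists. Mmp12's brightest probe stayed between -3.98 and -3.19 in those settings. It was -2.54 with normexp correction and quantile normalization, which raises low signals by an offset and also took its probe A_51_P313674 from -2.31 to -0.99 and Mmp13 from -2.13 to -0.55, and -2.41 as the mean of its 3 probes. The replicate block called 1 probe over all, 0 members outside Mmp12 and 0 pathway genes. The replicate block with the 75th percentile over unmarked spots only, chosen after seeing the data, called 1715 probes, 1 member (Mmp13) and 4 pathway genes, among them Pcsk6, Nfkb1 and Bcan, while the replicate block with quantile normalization, also added later, called 0 probes; the cause was not tested.

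Directions turned in a few settings. Mmp8 differed by 0.0835 with outlier-marked spots kept and, in scalings added after seeing the data, by 0.140 with the percentile over unmarked spots, 0.0441 over probes unmarked on all arrays and 0.0901 with median centring. Leaving out 1 array at a time gave -0.415 (without mPGC-1α replicate 3) to 0.645 (without mPGC-1α replicate 1) for Mmp8, -0.816 (without control replicate 2) to 0.318 (without control replicate 1) for Mmp14, -0.109 (without control replicate 1) to 0.435 (without control replicate 2) for Timp1, -0.540 (without control replicate 1) to 0.124 (without control replicate 2; 0.120 without mPGC-1α replicate 1) for Timp3 (A_55_P2865447), -1.29 (without mPGC-1α replicate 3) to 0.140 (without mPGC-1α replicate 1) for Elane, and -0.0306 (without control replicate 3) to 1.23 (without control replicate 1) for Fosl1. Of the other settings of single genes, 548 kept direction and, where there was a test, side of the threshold, and 9 came to pass it. The 548 include settings of Mmp12 probes, which had no test. The remaining 1, Mmp12 probe A_51_P313674 with normexp correction and quantile normalization, kept its direction at a smaller size.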
